A study of Mus musculus with 6 samples.

Results

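Derl1, Derl2 and Derl3, the Derlin genes of the mouse, were followed in ventricles that express an active form of ATF6α or of ATF6β. They were selected by gene symbol, and each had 1 transcript cluster of its own (the platform's unit for a gene, read as 1 signal per array), so that they account for 3 of 22206 clusters tested on 6 arrays. Derl3 had been singled out because its values were known to rank the lines differently from its paralogs. Its levels and changes are therefore given as a description with no test. Derl1 and Derl2 were included by name and carry the test of the whole table. Their order between the lines was part of what was known, so their tests between the lines give no independent support. The groups were ATF6α-cn (labelled ATF6a-OE), ATF6β-cn (labelled ATF6b-OE) and Control, 2 mice each, all 8 weeks old and 4 weeks off doxycycline (DOX). Every mouse carried αMHC-tTA, a cardiac myosin promoter that drives the tet transactivator and switches a responder transgene on when DOX is withdrawn. Control mice had this driver alone, ATF6α-cn mice also had a responder for the nuclear N-terminus of mouse ATF6α, and ATF6β-cn mice had one for the N-terminus of mouse ATF6β. The promoter acts in cardiac myocytes, whereas the RNA came from whole ventricles, so fewer cells of a type and less RNA per cell cannot be told apart. The transgenes are read by different probe sets, so the arrays do not give their relative amounts.

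Derlins are multi-pass proteins of the endoplasmic reticulum (ER) membrane that resemble rhomboid proteases but lack the catalytic residues. They work in ER-associated degradation (ERAD), where misfolded proteins are recognised in the lumen, passed through the membrane beside the Hrd1 ubiquitin ligase and its adaptor Sel1l, and pulled into the cytosol by the ATPase p97 for the proteasome. Derl1 and Derl2 are found in most tissues, and Derl3 is known best from cells that secrete much protein, such as the pancreas. ATF6 is an ER stress sensor whose N-terminus, once released by cleavage in the Golgi, enters the nucleus and binds the ER stress response element (ERSE) together with the factor NF-Y.

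The starts of the Derlin genes are shown because ATF6 acts through promoter elements of known letters. The sequences are RefSeq promoter windows on the GRCm38.p6 build, from 250 bases before to 50 bases after a transcription start, printed 5′ to 3′ in the direction of the gene, and 2 of the 3 genes had an entry. Derl3 spans chr10:75893398-75895941 with 1 window, Derl2 spans chr11:71007440-71019841 with 2 windows, and Derl1 spans chr15:57869502-57892418. Capitals mark the CCAAT part of the ERSE, which binds NF-Y, and its CCACG part, which binds ATF6, on either strand (on the opposite strand they read ATTGG and CGTGG).
Derl3, chr10:75893148-75893447, + strand: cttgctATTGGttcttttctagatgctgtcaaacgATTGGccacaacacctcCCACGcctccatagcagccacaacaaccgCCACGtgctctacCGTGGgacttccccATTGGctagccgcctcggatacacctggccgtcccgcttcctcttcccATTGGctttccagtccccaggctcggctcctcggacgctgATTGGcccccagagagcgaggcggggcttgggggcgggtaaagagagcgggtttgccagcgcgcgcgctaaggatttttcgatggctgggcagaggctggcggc
Derl2 window 2, chr11:71019254-71019553, - strand: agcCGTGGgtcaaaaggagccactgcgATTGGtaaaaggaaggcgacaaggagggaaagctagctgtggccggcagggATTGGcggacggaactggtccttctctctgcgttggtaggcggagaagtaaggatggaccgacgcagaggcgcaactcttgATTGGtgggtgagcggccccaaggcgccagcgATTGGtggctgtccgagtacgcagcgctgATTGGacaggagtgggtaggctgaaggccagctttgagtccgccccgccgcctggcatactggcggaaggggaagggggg

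The Derl3 window held 1 full ERSE, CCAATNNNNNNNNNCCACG, on the opposite strand between 156 and 138 bases before the start. It also held 5 NF-Y parts and 3 ATF6 parts in all, those of the ERSE included. Over all RefSeq windows of this length, a full ERSE on either strand occurred in 39 of 32851 (0.119%), while CCACG on either strand occurred in 32.8% and CCAAT in 37.4%. The second Derl2 window held 5 NF-Y parts and 1 ATF6 part, with no pair at the spacing of a full ERSE. The first Derl2 window, chr11:71019792-71020091 on the - strand, held neither part. Neither of the other elements searched, ERSE-II (ATTGGNCCACG, in 0.0365% of windows) and the core of the unfolded protein response element (TGACGTGG, in 0.676%), both on either strand, was in any of the 3 windows. A match of letters is a description and not a bound site, and no match says only that these letters are not in this window.

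**Figure D1:**
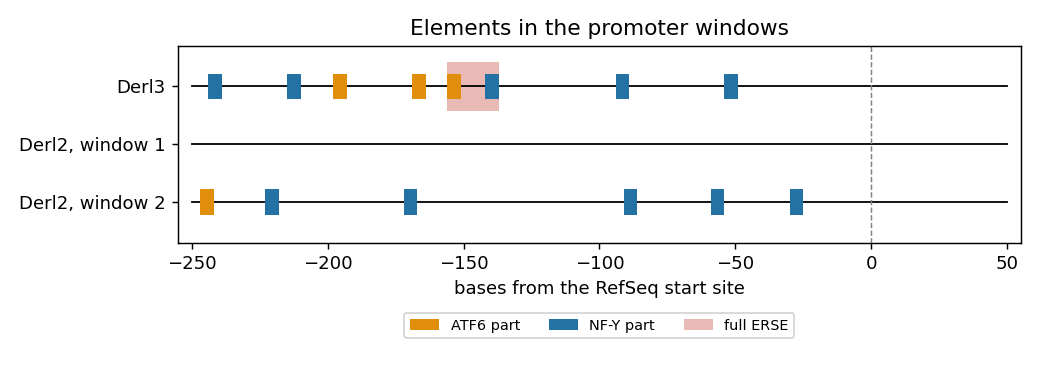
The horizontal axis gives the distance in bases from the RefSeq start site for 3 promoter windows, with ATF6 parts (CCACG) in orange, NF-Y parts (CCAAT) in blue and a full ERSE as a pale red band. The Derl3 window carries the ERSE between 156 and 138 bases before the start, the second Derl2 window carries 5 NF-Y parts and 1 ATF6 part outside that spacing, and the first Derl2 window carries neither.

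Values are log2 signals that the authors normalized between arrays, with array medians between 5.58 and 5.64. Arrays of 1 group correlated at 0.990 (ATF6α-cn), 0.991 (ATF6β-cn) and 0.990 (Control) over all clusters. A background level was set on each array from 1410 clusters of olfactory and vomeronasal receptors (their 95th percentile), which are sensory receptor genes, and lay between 5.14 and 5.26. As a check of the labels, Atf6b read 14.80 and 14.81 on the ATF6β-cn arrays, against 8.72 and 8.63 on the Control arrays, and it read 8.65 and 9.18 on the ATF6α-cn arrays. Atf6 read 12.70 and 13.07 on the ATF6α-cn arrays, 12.25 and 11.94 on the ATF6β-cn arrays, and 13.09 and 13.04 on the Control arrays, so no rise was detected in the line labelled ATF6α-cn, and no source used here says which part of the message it matches. Groups were compared with limma on all 6 arrays, two-sided, and a cluster is called changed at a Benjamini-Hochberg adjusted p under 0.05 over all 22206. The pair of arrays in each group limits the precision, and the smallest p that exact permutation of 2 arrays against 2 allows is 0.333. Where arrays of a group are said to be the highest or not to overlap, this is a description only. The share of all clusters separated in the same way was not counted. The labels name the mice of a group as biological replicates, and both lines are set against the same Control arrays, so the changes of the lines against Control are not independent of each other.

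Derl3 was the Derlin with the widest range. Its log2 signal was 11.32 and 10.89 on the ATF6α-cn arrays, 7.02 and 7.27 on the ATF6β-cn arrays, and 4.96 and 4.86 on the Control arrays. The groups did not overlap, and the order was ATF6α-cn, then ATF6β-cn, then Control. The order of the lines is what Derl3 was singled out for. The largest distance between arrays of 1 group was 0.43, in ATF6α-cn. Both Control arrays lay below the background level of their array, by 0.19 and 0.38, whereas the ATF6β-cn arrays lay above theirs by 1.82 and 2.01 and the ATF6α-cn arrays by 6.17 and 5.67. Derl3 message was therefore not told from background in Control ventricles, and its change there has only a lower bound. Setting the mean of a line against the background level in Control gave at least 60.0-fold more signal in ATF6α-cn and at least 3.87-fold more in ATF6β-cn.

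The fitted log2 changes of Derl3, which take the Control signals at face value and are no bounds, were 6.19 for ATF6α-cn and 2.24 for ATF6β-cn, each with a standard error of 0.24. Set directly against each other, ATF6β-cn averaged 7.15 ± 0.18 and ATF6α-cn 11.10 ± 0.30 (SD, n = 2 arrays each), a log2 difference of -3.95. The level above background in ATF6β-cn depends on which probe sets define background. The 5245 negative control probe sets of the array had a 95th percentile of 9.10 to 9.19 on the ATF6α-cn arrays, 9.02 to 9.05 on the ATF6β-cn arrays and 8.37 to 8.39 on the Control arrays. Derl3 lay above that level on the ATF6α-cn arrays and below it on the ATF6β-cn arrays, so against it the rise in ATF6α-cn was at least 6.60-fold and ATF6β-cn gave no bound.

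**Figure D2:**
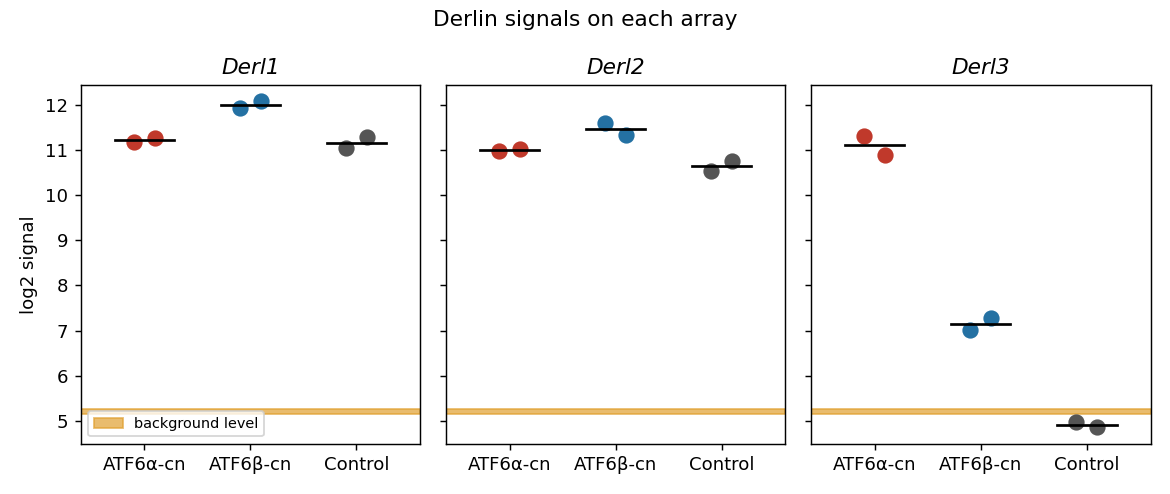
The log2 signal of each Derlin (vertical axis) is plotted for the arrays of ATF6α-cn (red), ATF6β-cn (blue) and Control (grey), 1 point per array with a bar at the group mean, and the band marks the background level of 5.14 to 5.26. Derl1 and Derl2 stayed far above the band in every group and were highest in ATF6β-cn, whereas Derl3 was highest in ATF6α-cn and lay under the band in Control.

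Derl1, the Derlin known best for extracting membrane proteins from the ER, was well above background in all groups, by 5.89 to 6.82 on the log2 scale. It read 11.18 and 11.28 on the ATF6α-cn arrays, 11.93 and 12.08 on the ATF6β-cn arrays, and 11.05 and 11.29 on the Control arrays. Both ATF6β-cn arrays were the highest, while the ATF6α-cn arrays lay within the range of the Control arrays. Means were 11.23 ± 0.07 for ATF6α-cn, 12.01 ± 0.11 for ATF6β-cn and 11.17 ± 0.17 for Control (SD, n = 2 arrays each). In ATF6α-cn the log2 change was 0.06 (95% interval -0.43 to 0.55, adjusted p = 0.954 from limma), an interval that leaves room for a modest change in either direction. In ATF6β-cn the change was 0.84, or 1.79-fold (95% interval 0.35 to 1.33, adjusted p = 0.131 from limma), wider than the spread between arrays of a group but not past the threshold over all clusters.

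Derl2, which works beside Hrd1 in the removal of misfolded luminal proteins, lay 5.39 to 6.39 above background. Its gene shares 274 bases with the neighbouring Mis12, and no source used here says whether its probes read them. It read 10.98 and 11.02 on the ATF6α-cn arrays, 11.59 and 11.33 on the ATF6β-cn arrays, and 10.55 and 10.75 on the Control arrays. No groups overlapped, and the order was ATF6β-cn, then ATF6α-cn, then Control, with the share of all clusters so separated not counted. Means were 11.00 ± 0.03 for ATF6α-cn, 11.46 ± 0.19 for ATF6β-cn and 10.65 ± 0.14 for Control (SD, n = 2 arrays each). ATF6α-cn differed from Control by 0.35 on the log2 scale (95% interval -0.14 to 0.85, adjusted p = 0.665 from limma). ATF6β-cn differed from Control by 0.81, or 1.76-fold (95% interval 0.32 to 1.31, adjusted p = 0.146 from limma).

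Neither Derl1 nor Derl2 was therefore called against Control in either line, where 0.0946% of all clusters were called up and 0% down in ATF6α-cn (21 and 0 of 22206), and 0.793% up and 0.306% down in ATF6β-cn (176 and 68). At an unadjusted p under 0.05 those counts were 986 up (4.44%) and 995 down (4.48%) in ATF6α-cn, and 1492 up (6.72%) and 1585 down (7.14%) in ATF6β-cn. The unadjusted p of Derl1 and Derl2 in ATF6β-cn was 0.00402 and 0.00517 from limma, both with all arrays above all Control arrays. With a variance trend and a robust fit, Derl1 and Derl2 passed in ATF6β-cn at the same log2 changes (adjusted p = 0.0293 and 0.0418 from limma). Under the other limma settings tried, the adjusted p ran from 0.0776 to 0.430 for Derl1 and from 0.0866 to 0.433 for Derl2.

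Between the lines, Derl1 was higher in ATF6β-cn than in ATF6α-cn by 0.78 on the log2 scale, or 1.72-fold (95% interval 0.29 to 1.27, adjusted p = 0.264 from limma), with no overlap of the arrays. Derl2 was higher in ATF6β-cn by 0.46 (95% interval -0.04 to 0.96, adjusted p = 0.567 from limma), also with no overlap. Neither was called, beside 0.221% of clusters called up and 0.0495% called down in this comparison (49 and 11). Derl3 differed by -3.95 in the same comparison, so that ATF6β-cn had the higher signal of Derl1 and Derl2 and ATF6α-cn that of Derl3. Over the 6 arrays Pearson's r was 0.876 for Derl1 with Derl2, -0.09 for Derl1 with Derl3 and 0.265 for Derl2 with Derl3. These values describe 6 points that fall into 3 groups and share their normalization.

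**Figure D3:**
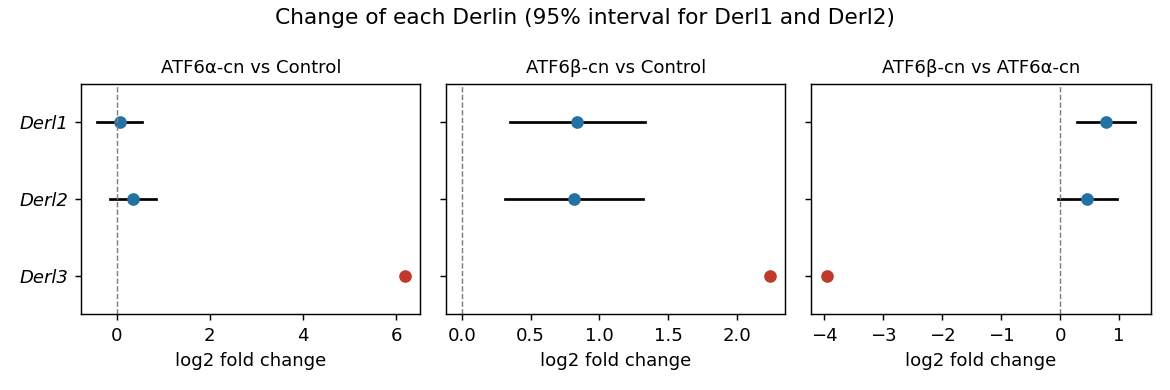
Points give the log2 fold change of each Derlin (horizontal axes, with a scale of their own in each panel) for each line over Control and for ATF6β-cn over ATF6α-cn, with lines for the 95% interval of Derl1 and Derl2 from limma and none for Derl3, which was singled out by its values. Derl3 stood at 6.19, 2.24 and -3.95, Derl1 at 0.06, 0.84 and 0.78, and Derl2 at 0.35, 0.81 and 0.46.

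The partners of the Derlins in ERAD were taken from a list of 43 other genes, of which 40 had a cluster of their own. The list was chosen with earlier results of these data known, so its counts give no independent support. In ATF6α-cn 1 of the 40 rose and none fell, and in ATF6β-cn 4 rose and none fell by limma, beside 0.0946% and 0.793% of all clusters called up. At an unadjusted p under 0.05 these counts were 6 up and 1 down in ATF6α-cn (4.44% up and 4.48% down over all clusters), and 7 up and 3 down in ATF6β-cn (6.72% and 7.14%). The list had a median log2 change of -0.08 for ATF6α-cn and 0.07 for ATF6β-cn, beside -0.03 and -0.02 over all clusters, so the rises belonged to a few members. In the direct comparison of the lines none of the 40 was called by limma, with a median of 0.09 beside 0.00 over all clusters. At an unadjusted p under 0.05, 4 were higher and 1 lower in ATF6β-cn, beside 5.3% and 4.37% of all clusters (1176 and 971).

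The genes that rose encode parts of the Hrd1 complex or proteins that bring substrates to it. Sel1l, the adaptor that holds Hrd1 together with its substrates, read 12.75 and 12.66 in ATF6α-cn, 12.00 and 12.02 in ATF6β-cn, and 9.92 and 10.60 in Control. It was higher in both lines than in Control on every array, by 2.44 in ATF6α-cn (standard error 0.26, adjusted p = 0.0137 from limma) and by 1.75 in ATF6β-cn (standard error 0.26, adjusted p = 0.0225 from limma). Syvn1, which encodes Hrd1, read 7.96 and 7.20 in ATF6α-cn, 7.90 and 7.78 in ATF6β-cn, and 6.39 and 6.18 in Control. It rose in ATF6β-cn by 1.55 (adjusted p = 0.0416 from limma), while ATF6α-cn had 1.30 (adjusted p = 0.241 from limma). Herpud1, a membrane protein that joins the Hrd1 complex, read 15.99 and 15.55 in ATF6α-cn, 16.06 and 16.41 in ATF6β-cn, and 14.52 and 14.83 in Control. Its rise in ATF6β-cn was 1.56 (adjusted p = 0.0296 from limma), against 1.10 for ATF6α-cn, which did not pass (adjusted p = 0.289 from limma).

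Of 18 measured genes of the Hrd1 ligase and its membrane partners, these were the 1 that rose in ATF6α-cn and the 3 that rose in ATF6β-cn. Selenok, a selenoprotein that binds Derlins, had log2 changes of 0.26 in ATF6α-cn and 0.99 in ATF6β-cn (adjusted p = 0.744 and 0.0751 from limma). Erlin1, which takes part in degrading IP3 receptors, had -0.65 and -0.76 and did not pass. Among 9 lectins and mannosidases that mark glycoproteins for ERAD, Os9 rose in ATF6β-cn. Os9, a lectin that hands misfolded glycoproteins to Sel1l, read 10.73 and 10.10 in ATF6α-cn, 11.23 and 11.38 in ATF6β-cn, and 9.26 and 9.75 in Control, a rise of 1.80 in ATF6β-cn (adjusted p = 0.0252 from limma) beside 0.90 for ATF6α-cn (adjusted p = 0.427 from limma). Edem1 and Edem3, which trim mannose from such glycoproteins, had changes of 0.55 and 0.28 in ATF6α-cn and of 0.49 and 0.38 in ATF6β-cn, none past the threshold. None of 13 genes of p97 and deglycosylation passed in any comparison by limma. At an unadjusted p under 0.05, 1 was up in ATF6α-cn, 2 up and 1 down in ATF6β-cn and 1 up between the lines. The shares over all clusters at that p were 4.44% up in ATF6α-cn, 6.72% up and 7.14% down in ATF6β-cn, and 5.3% up between the lines. Among the 13 were Vcp, which encodes p97 (0.88 in ATF6α-cn and 0.33 in ATF6β-cn), and Yod1, a deubiquitinase that works with p97 (0.40 and 0.74).

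The calls of these partners rested on few arrays. The rise of Sel1l in ATF6α-cn passed when Control replicate 2 was left out (adjusted p = 0.0204 from limma) and not when any other array was (adjusted p between 0.0513 and 0.167 from limma). The number of the 40 called up in ATF6β-cn was 0 without Control replicate 1, 1 without Control replicate 2 and 0 without either ATF6β-cn array, against 4 with all arrays and 4 without either ATF6α-cn array.

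The rhomboid relatives, genes of the wider family to which Derlins belong by fold, had 11 measured members, and limma called none of them in any comparison. At an unadjusted p under 0.05, 1 was higher in ATF6α-cn, 0 passed in ATF6β-cn, and 1 was lower in ATF6β-cn than in ATF6α-cn. Over all clusters the shares at that p were 4.44% up in ATF6α-cn, 6.72% up and 7.14% down in ATF6β-cn, and 4.37% down between the lines. The median log2 change of the 11 stood at -0.04 for ATF6α-cn, at -0.14 for ATF6β-cn and at -0.06 for ATF6β-cn over ATF6α-cn. Rhbdf2 (iRhom2), which carries the protease ADAM17 out of the ER, had a change of 0.59 in ATF6α-cn and -0.01 in ATF6β-cn. Rhbdd3 had 0.24 and -0.30. None of the 11 reached, in its change against Control, the sizes of Derl1 and Derl2 in ATF6β-cn. In ATF6α-cn, however, Rhbdf2 (0.59) and Rhbdl1 (0.40) had larger changes than Derl1 (0.06) and Derl2 (0.35). Rhbdl2 and Tmem115 lay below background on every array.

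**Figure D4:**
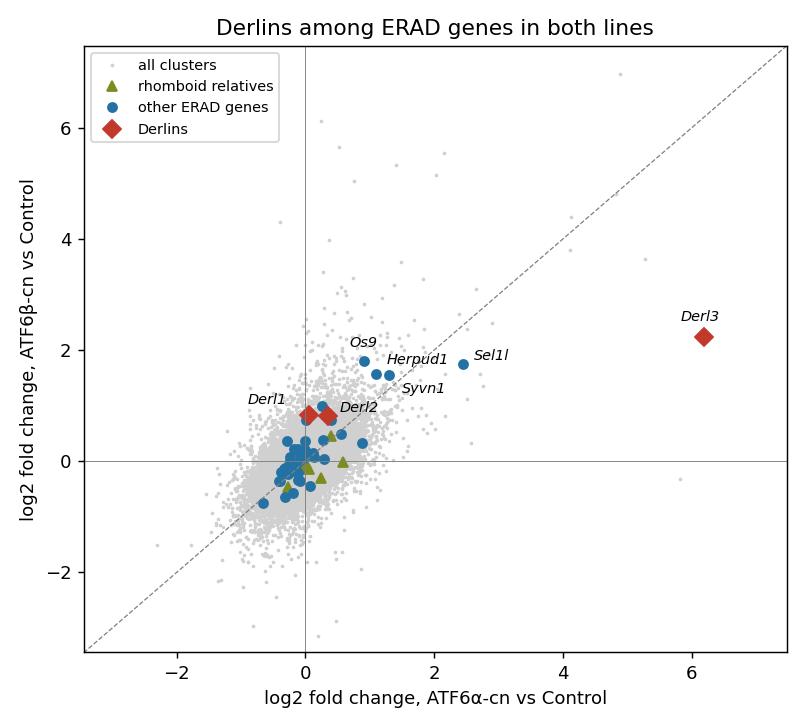
Each point is a cluster, with its log2 fold change in ATF6α-cn against Control on the horizontal axis and in ATF6β-cn against Control on the vertical axis, both set against the same Control arrays, and the dashed diagonal marks equal change. Derl3 lies far to the right at 6.19 and 2.24, Derl1 and Derl2 lie above the diagonal at heights of 0.84 and 0.81, and Sel1l, Syvn1, Herpud1 and Os9 stand out among the other ERAD genes (blue).

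Genes that share with Derl3 a full ERSE in the window around their start were then listed. The list comes from the sequence alone, but it was drawn up after the values had been seen and gives no independent support. Leaving out Derl3, 36 genes had such a site and 27 of them a cluster of their own. In ATF6α-cn 5 of the 27 rose and none fell (median log2 change 0.21), and in ATF6β-cn 7 rose and none fell (median 0.32), beside the background shares of 0.0946% and 0.793% called up. At an unadjusted p under 0.05, 9 were up and 1 down in ATF6α-cn, and 10 were up and 3 down in ATF6β-cn by limma. Over all clusters the shares at that p were 4.44% up and 4.48% down in ATF6α-cn, and 6.72% and 7.14% in ATF6β-cn. Some members share their sequence: Esp15, Esp16 and Esp18 carry the same site, as do Xlr3a, Xlr3b and Xlr3c. Between the lines none of the 27 was called by limma, and the median was 0.08. At an unadjusted p under 0.05, 2 were higher and 2 lower in ATF6β-cn, beside 5.3% and 4.37% of all clusters. The sites below are those of Derl3, of the 7 genes that rose, and of 2 ER genes that did not, printed 5′ to 3′ on the strand that reads CCAAT first, with the NF-Y and ATF6 parts in capitals.
Derl3 (chr10:75893242-75893260): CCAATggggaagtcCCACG
Hsp90b1 (chr10:86705638-86705656): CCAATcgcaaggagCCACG
Creld2 (chr15:88819520-88819538): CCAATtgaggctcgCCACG
Dnajc3 (chr14:118937827-118937845): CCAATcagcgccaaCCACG
Calr (chr8:84847075-84847093): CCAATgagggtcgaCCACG
Hspa5 (chr2:34772025-34772043): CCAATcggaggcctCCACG
Pdia6 (chr12:17266491-17266509): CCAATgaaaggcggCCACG
Syvn1 (chr19:6046532-6046550): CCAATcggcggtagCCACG
Canx (chr11:50325800-50325818): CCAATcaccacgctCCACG
Ero1b (chr13:12565682-12565700): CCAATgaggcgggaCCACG

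Hsp90b1, the ER form of HSP90, had log2 changes of 2.71 in ATF6α-cn and 1.56 in ATF6β-cn (adjusted p = 0.00276 and 0.0178 from limma). Creld2, an ER stress-inducible protein, had 2.89 and 2.48 (adjusted p = 0.0107 and 0.00723 from limma). The other members that rose in both lines were Dnajc3, a cochaperone (1.82 and 2.06), Calr, which encodes calreticulin (1.74 and 1.83 in ATF6α-cn and ATF6β-cn), and Hspa5, which encodes BiP (1.72 and 1.38). Pdia6, a disulfide isomerase, rose in ATF6β-cn by 1.99 (adjusted p = 0.00632 from limma), against 1.53 for ATF6α-cn, which did not pass (adjusted p = 0.0799 from limma). Syvn1, the other member that rose in ATF6β-cn, is also an ERAD gene of the list described before.

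Most of these genes were not called, which with 2 arrays per group does not show that they were unchanged. The list also holds Olfr59, an olfactory receptor gene of the kind that set the background level. Canx, which encodes calnexin, had log2 changes of 0.16 in ATF6α-cn and 0.25 in ATF6β-cn, and Ero1b, an ER oxidase, had 0.04 and 0.45. Alg12, a mannosyltransferase, shares 1 site with Creld2 between their opposed starts, and its changes were -0.36 in ATF6α-cn and 0.67 in ATF6β-cn. The calls of the 27 fell to 1 or 2 without any 1 array in ATF6α-cn, where the rise of Hsp90b1 passed whichever array was left out (highest adjusted p = 0.0489 from limma). In ATF6β-cn they numbered 3 without Control replicate 1, 2 without Control replicate 2, and 1 and 0 when ATF6β-cn replicates 1 and 2 were left out in turn.

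**Figure D5:**
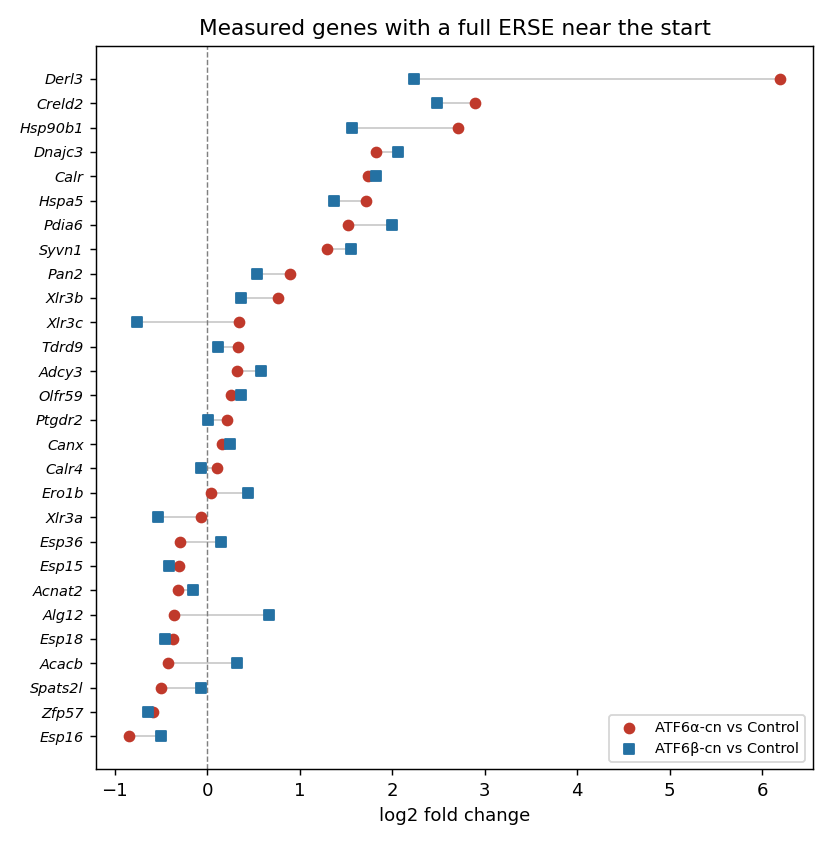
Log2 fold changes against Control (horizontal axis) are drawn for the 28 measured genes with a full ERSE near the start, ordered by their value in ATF6α-cn, with red circles for ATF6α-cn and blue squares for ATF6β-cn. Derl3 has the widest distance between its points, 6.19 and 2.24, and the genes from Canx (0.16 and 0.25) down lie near or below 0 in ATF6α-cn.

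The genes whose pattern was most like that of Derl3 were taken as the 6 with the highest Pearson's r over the 6 arrays, among 1014 clusters of a single gene whose group means spanned at least 1 on the log2 scale. They were Camkk2, a kinase that activates other calmodulin-dependent kinases and AMPK (r = 0.991), Chrd, the BMP antagonist chordin (0.991), D430019H16Rik (0.977), Chka, a choline kinase of phospholipid synthesis (0.975), Cdca4 (0.974) and Hsp90b1 (0.969). Hsp90b1 read 18.77 and 18.44 in ATF6α-cn, 17.37 and 17.55 in ATF6β-cn, and 15.92 and 15.88 in Control, with no overlap of the groups. Chka read 5.75 and 5.63 in ATF6α-cn, 4.92 and 4.77 in ATF6β-cn, and 3.82 and 3.96 in Control, so it was above background on the ATF6α-cn arrays alone. Camkk2, Chrd and D430019H16Rik also lay below background in Control, at means between 4.99 and 5.02. The choice by likeness to Derl3 fixes the order of the groups in these genes, and the 4 that lay below background in Control met the span through the lines in which they were higher.

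Markers of cardiomyocytes and of other cell types, secretory cells among them, were read on the same arrays. All 8 cardiomyocyte markers were above background on every array. Of 8 plasma and B cell markers, 0 were above background on the ATF6α-cn and ATF6β-cn arrays and 0 or 1 on the Control arrays, and the summed linear signal was 158 to 159 in ATF6α-cn, 151 to 177 in ATF6β-cn and 161 in Control. Of 7 pancreatic acinar markers, 2 were above background on the ATF6α-cn and ATF6β-cn arrays and 1 or 2 on the Control arrays, with sums of 241 to 270, 219 to 259 and 201 to 204. The sum of 5 endothelial markers was 35479 to 58037 in ATF6α-cn, 35419 to 36524.5 in ATF6β-cn and 40701 to 42336 in Control. Cdh5 made 44.2% to 54.5% of it. The sum of 6 macrophage markers was 9593 to 9646 in ATF6α-cn, 9340 to 16550 in ATF6β-cn and 8122 to 8930 in Control. At least 80.4% of it came from Lyz2. The fibroblast, atrial and smooth muscle sums were higher on both ATF6β-cn arrays than on the Control arrays, and most of each sum came from 1 gene. In ATF6α-cn the atrial sum was also higher than in Control, while the fibroblast and smooth muscle sums overlapped those of Control. The summed signal of the 7 measured fibroblast markers was 222461 to 244155 in ATF6α-cn, 327339 to 409228 in ATF6β-cn and 230347 to 230417 in Control, with at least 92.8% of it from Dcn, and the median log2 change of the list was 0.14 for ATF6α-cn and 0.61 for ATF6β-cn. That of 4 atrial markers was 121283 to 367717 in ATF6α-cn, 123572 to 156430 in ATF6β-cn and 46701 to 47048 in Control, with at least 99.6% from Nppa, a natriuretic peptide gene. Of the other atrial markers, Myl7 was below background on every array, Myl4 had log2 changes of -0.13 in ATF6α-cn and 0.11 in ATF6β-cn, and Sln had 0.51 and 0.53 and lay below background in Control. The sums of 4 smooth muscle markers were 15567 to 29188 in ATF6α-cn, 22658 to 62861 in ATF6β-cn and 12137 to 16305 in Control, with at least 91.7% from Acta2, which had 1.56-fold (ATF6α-cn) and 2.82-fold (ATF6β-cn) the Control signal and did not pass. The median change of that list was 0.01 for ATF6α-cn and -0.01 for ATF6β-cn, and Myh11 had -0.35 and -0.36. None of 49 measured markers was called by limma in any comparison. At an unadjusted p under 0.05, 4 were up in ATF6α-cn, 6 up in ATF6β-cn, and 2 up and 3 down between the lines. Over all clusters the shares up at that p were 4.44%, 6.72% and 5.3%, and the shares down 4.48%, 7.14% and 4.37%. The part of these cells in the Derl1 and Derl2 signals was not tested.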

How the data were processed

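Ventricular RNA of 6 mice was labelled with a 3′ in vitro transcription kit and put on Affymetrix Clariom S mouse arrays, 2 per group. The authors deposited log2 signals, 1 per probe set and array, normalized between arrays. Affymetrix Expression Console is named in the submitters' notes, without a version or a stated method of background correction and summary in the sources used here. Sheets of the authors' own fold changes and p-values served only to pair probe sets with symbols, and their values were not used. Of 28846 probe sets, 6640 controls were left out and 22206 clusters were tested, with no filter on signal. Arrays give no read depth.

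Comparisons used limma 3.58.1 under R 4.3.3 (lmFit, contrasts.fit and eBayes; 1 mean per group, 3 residual and 5.63 prior degrees of freedom), with Benjamini-Hochberg adjustment over all clusters in each comparison. The calculation was tested on simulated data. The lowest fold of a gene under background is, on the log2 scale, its mean in the brighter group minus the mean over Control arrays of the higher of its signal and the background level. Of 104 listed genes 100 were measured, 3 through a synonym. Promoter windows are RefSeq's for GRCm38.p6.

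The members and lists were chosen with earlier results of these data known. Genes named are the Derlins, Atf6 and Atf6b, from each pathway list up to 4 members that passed and 2 that did not, by size of change, the 6 most like Derl3, and up to 2 measured neighbours on each side. The genes with an ERSE were added with all values known. Alternatives were quantile normalization, median centring, a filter on dim clusters, array weights, a block for the replicate number, a variance trend with a robust fit, a fit on the compared arrays alone, each array left out, other background levels, and the Student's t-test that a legend of the study names. No term for sex was fitted. Immunoblots and heart function were not analysed here.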

Additional observations from a re-analysis of the deposited data

How the results depend on the processing

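No Derlin reversed its change except Derl1 in ATF6α-cn, at a log2 change of -0.060 without Control replicate 1. Leaving out each array in turn gave Derl1 -0.060 to 0.18 in ATF6α-cn, 0.72 to 0.96 in ATF6β-cn and 0.70 to 0.85 between the lines, Derl2 0.25 to 0.46, 0.68 to 0.95 and 0.33 to 0.59, and Derl3 5.98 to 6.41, 2.11 to 2.36 and -4.17 to -3.74. The lowest fold of Derl3 ran from 51.7 to 69.5 in ATF6α-cn and from 3.55 to 4.22 in ATF6β-cn. With background at the 99th percentile of receptors it was 35.8 and 2.31, and at the 95th percentile of the negative controls 6.60 and 0.426, which is under 1 and so no bound. With a variance trend and a robust fit, Derl1 (0.84) and Derl2 (0.81) passed in ATF6β-cn. They also had an unadjusted p under 0.05 by Student's t-test in ATF6β-cn, as had Derl1 between the lines (0.78). After Benjamini-Hochberg adjustment of Student's t-test none of these passed. Its adjusted p was 0.447 for Derl1 and 0.467 for Derl2 in ATF6β-cn, and 0.657 for Derl1 between the lines.

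Of the other ERAD genes, 1 was called in ATF6α-cn and 4 in ATF6β-cn. In ATF6α-cn the count was 2 with a variance trend and a robust fit, 0 with only the compared arrays in the fit and 0 to 1 with an array left out. In ATF6β-cn it was 0 to 4 with an array left out. Student's t-test gave 0 in each line after Benjamini-Hochberg adjustment. At an unadjusted p under 0.05 it gave 4 (ATF6α-cn), 11 (ATF6β-cn) and 4 (ATF6β-cn against ATF6α-cn), and 1 rhomboid relative between the lines. The share of all clusters that passed this unadjusted t-test was not counted, so these counts have no background beside them. Arrays that share a replicate number did not deviate together (r of 0.00948, 0.0194 and -0.0237). No pairing of the mice by these numbers was seen, but 2 arrays per group cannot exclude one. With the replicate number as a block, 2 other ERAD genes were called in ATF6β-cn, and 2 genes with an ERSE in ATF6α-cn, while Derl1 and Derl2 stayed uncalled. Array number and signal over background limit these values, above all for Derl3 in Control and ATF6β-cn.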

Other observations

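Of 8 measured genes beside the Derlins, limma called none in any comparison. At an unadjusted p under 0.05 were Mmp11, higher in ATF6β-cn than in Control, and Tbc1d31 between the lines, lower in ATF6β-cn. Over all clusters the shares at that p were 6.72% up and 7.14% down in ATF6β-cn, and 5.3% up and 4.37% down between the lines. Derl3 lies between Mif, a cytokine gene 33120 bases away, and Smarcb1, which encodes a subunit of the SWI/SNF chromatin remodeller and lies 827 bases away, with the metalloproteinase gene Mmp11 beyond it. Smarcb1 read 8.54 and 8.09 in ATF6α-cn, 8.01 and 7.61 in ATF6β-cn, and 7.91 and 7.77 in Control. Its ATF6α-cn arrays were the highest, as for Derl3, by a log2 change of 0.47 (adjusted p = 0.625 from limma), and its change in ATF6β-cn was -0.04. The share of all clusters with ATF6α-cn highest was not counted, so this likeness is a description only. Mif had changes of 0.37 in ATF6α-cn and 0.34 in ATF6β-cn, with overlapping arrays, and Mmp11 had 0.23 and 0.63.

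Derl2 overlaps Mis12, a kinetochore gene, by 274 bases at its start. Mis12 read 8.42 and 7.93 in ATF6α-cn, 8.45 and 8.92 in ATF6β-cn, and 8.01 and 8.31 in Control. The ATF6β-cn arrays were the highest, as for Derl2, by a log2 change of 0.52 against Control (adjusted p = 0.448 from limma). How many of all clusters had ATF6β-cn highest was not counted either. Dhx33, a helicase gene on the other side of Derl2, had 0.31 in ATF6α-cn and 0.30 in ATF6β-cn, and 6330403K07Rik beyond Mis12 lay below background in every group. Beside Derl1, Zhx2 had changes of -0.16 and 0.20, and Tbc1d31 of 0.39 and -0.20.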
